A study of Arabidopsis thaliana with 8 samples.

Results

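Whole Arabidopsis thaliana seedlings that carried a mutation in AHA2 were compared with wild type seedlings on single-colour Affymetrix expression arrays. AHA2 encodes a plasma membrane proton pump that, together with its close relative AHA1, moves protons out of the cell and so acidifies the cell wall and powers the uptake of nutrients, above all in roots. The samples were chosen by their genotype label, which gave 5 of the 8 arrays of the series: 3 of the aha2 mutant and 2 of wild type. Of the 3 mutant arrays, 2 came from the allele aha2-4 and 1 from the allele aha2-5, so aha2-5 has no replicate of its own. All plants were of the Col background, were 5 days old, and had been grown upright in the light on Murashige and Skoog medium at reduced strength, with no further treatment named. Total RNA came from the seedlings as a whole, so that fewer cells of a type and less RNA per cell cannot be told apart in any value below. The labels do not say whether arrays of the same genotype came from separate cultures, and p-values therefore measure the spread between these arrays, which may be technical. They also do not say what kind of lesion either allele carries.

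The arrays fall into 2 sets by a string that their descriptions share. The first set held 1 wild type, 1 aha2-4 and 1 aha1-6 array, where aha1-6 is a mutant allele of AHA1. The second set held 1 wild type, 1 aha2-4, 1 aha2-5, 1 aha1-6 and 1 aha1-7 array. Set was a term of every main fit. The 2 aha1-6 arrays entered the fit only to help estimate the spread and the set difference, and serve below as a second mutant for comparison. The aha1-7 array stood apart: it correlated with the others at a median of 0.887, where the remaining arrays reached 0.959 to 0.971, and 1201 of its probe sets differed over 2-fold from the average of the other fitted arrays, against 22 to 53 on each remaining array. It was left out of the main fit of 7 arrays. A value given as a level is a quantile normalized log2 intensity, a value given as a difference is on the same log2 scale, and a probe set is a group of spots read as 1 measurement. Levels of different probe sets are not comparable with each other. Tests covered the 11373 probe sets in the brighter 50% by mean level, of which 5921 were paired with exactly 1 gene, and a probe set was called at an adjusted p under 0.05 (limma, Benjamini-Hochberg).

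The mutation itself could not be checked by gene name, because none of the 11 plasma membrane proton pump genes was paired with a single-gene probe set in the annotation used here. The values of the aha2 arrays are therefore reported under their labels.

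Seedlings of the aha2 mutant differed from wild type at 61 probe sets, 0.536% of those tested. Higher levels in aha2 made up 48 of them (0.422%), and lower levels 13 (0.114%). Of these 61 probe sets, 31 carried the name of 1 gene, 22 higher and 9 lower. The higher named genes included genes of the iron deficiency response, chitinases, a germin-like gene and an oxidase of the berberine bridge enzyme family, and 5 of the 9 lower ones were encoded in the plastid genome. Fold differences ran from 1.63 to 5.06 with a median of 2.11. Against set-matched wild type, each of the 61 lay to 1 side in all 3 aha2 arrays, as did 4492 of the 11373 probe sets tested, and the fit that chose the 61 used these same values. At 59 of them the 3 aha2 and 2 wild type levels did not overlap, where 21.3% of all probe sets tested had no overlap (11.0% with aha2 higher and 10.3% with aha2 lower). The exceptions were the plastid genes psbB and ycf3.

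The number of calls rested on which arrays shared the fit. With all 8 arrays 3 probe sets were called, AT3G13610, AT5G38900 and the unnamed 267565_at (adjusted p = 0.0482 each in limma), and with the 5 aha2 and wild type arrays alone 36. AT5G38900 was bright enough to be tested only because its aha2 levels were high. Without the first aha2-4 array 18 were called, without the first wild type array 23, without the second wild type array 1, and without either aha1-6 array 36. When all 22746 probe sets were tested in place of the brighter ones, limma called 0, with 1422 at an unadjusted p under 0.05. The direction of all 61 was the same in each of these fits.

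**Figure D1:**
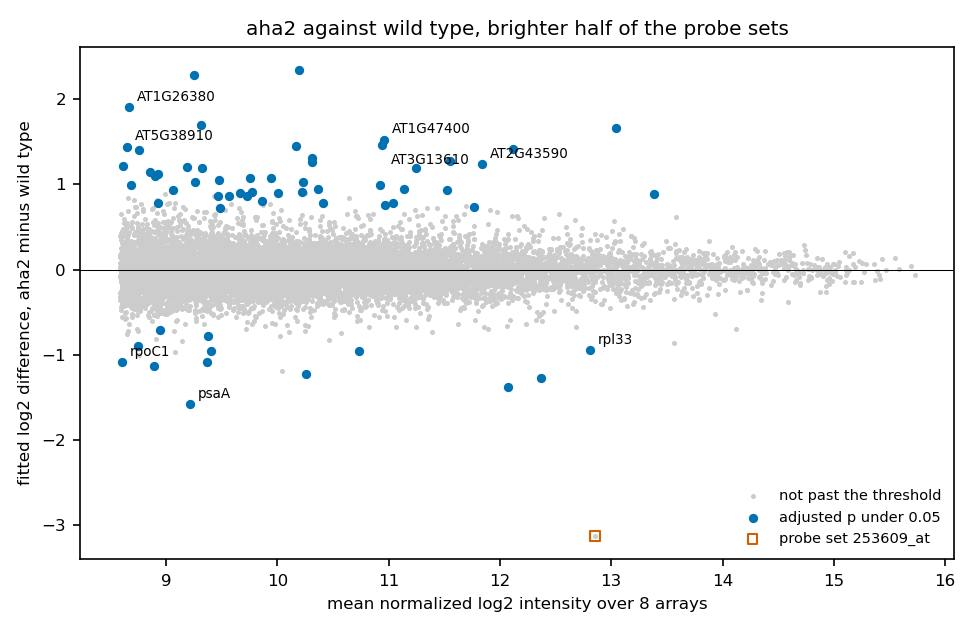
Fitted difference between aha2 and wild type (vertical axis, log2) against the mean level over 8 arrays (horizontal axis, normalized log2 intensity) for the 11373 brighter probe sets. Blue points are the 61 called probe sets, 48 above the line at 0 and 13 below it, and the orange square is probe set 253609_at, which had the largest difference and was not called.

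Iron deficiency makes Arabidopsis roots acidify the soil, reduce ferric iron and secrete coumarins that mobilise it, and proton pumping is part of that response. Of 44 genes listed for the response, 12 had a named probe set and 9 lay in the brighter 50%. The list was chosen with earlier results of these data known, so the shares below describe it and give no independent support. Among these 9, 3 were called higher in aha2, against 0.422% of all probe sets tested, and none was called lower. An unadjusted p under 0.05 was found at 6 of them, against 9.72% of all probe sets tested. The fitted difference was positive for 8 of the 9, against 48.1% of all, with a median of 0.68, against a median of -0.01 over all probe sets tested. Array by array, the median difference of the 9 genes from set-matched wild type reached 0.64 in the first aha2-4 array, 0.83 in the second and 0.70 in aha2-5, while it was 0.05 and 0.11 in the aha1-6 arrays. The aha2 and wild type levels of 6 of the 9 did not overlap, all with aha2 higher, against 11.0% of all probe sets tested. The median was 0.57 without the second wild type array, where 0 of the 9 genes were called.

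AT3G13610, which encodes the hydroxylase that starts coumarin synthesis from feruloyl-CoA, had levels of 10.48 and 10.41 in wild type, 11.90 and 11.95 in aha2-4 and 11.89 in aha2-5. The 3 aha2 levels lay within a narrow band (mean 11.91 ± 0.03, SD, n = 3), well above both wild type levels (10.44 ± 0.05, SD, n = 2). The fitted difference was 1.47 (SE 0.14), a 2.76-fold higher intensity, with an adjusted p of 0.000849 in limma. The call held with 8 arrays and was lost without the second wild type array (adjusted p = 0.233). In the aha1-6 arrays the gene stood at 10.13 and 10.30, below both wild type arrays.

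AT1G47400 encodes a small peptide of the IRONMAN family, which signals iron shortage. Its level was 10.59 and 10.34 in wild type, 12.10 and 12.24 in aha2-4 and 11.56 in aha2-5. All 3 aha2 arrays were above wild type, with aha2-5 the lowest of them, and the fitted difference was 1.53 (SE 0.19, adjusted p = 0.00303 in limma). Taken by allele, the difference from wild type was 1.70 for aha2-4 (adjusted p = 0.00147) and 1.12 for aha2-5 (adjusted p = 0.0715). The alleles themselves did not differ past the threshold at this gene (unadjusted p = 0.0135, adjusted p = 0.464 in limma). The call against wild type was lost with all 8 arrays (adjusted p = 0.968) and without the first aha2-4 array (0.0527), the first wild type array (0.0537) or the second wild type array (0.351). In aha1-6 AT1G47400 stood at 10.87 and 10.82, above both wild type arrays, and in aha1-7 at 9.15, below them. Its difference of aha2 from aha1-6 was 1.15 (adjusted p = 0.0103 in limma).

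AT5G05250 stood at 10.50 and 9.74 in wild type, 11.14 and 10.94 in aha2-4 and 10.86 in aha2-5. The groups did not overlap, though the wild type arrays lay farther from each other than the aha2 arrays did. Its fitted difference was 0.95 (SE 0.16, adjusted p = 0.0216 in limma), and the aha1-6 levels were 10.85 and 10.12. The difference of aha2 from aha1-6 did not pass at this gene (0.59, adjusted p = 0.0697). Of the regulators, PYE, a transcription factor that restrains iron deficiency genes in the root, had a difference of 0.76 (SE 0.15, adjusted p = 0.0655 in limma) and did not pass. AT1G74770, a ubiquitin ligase that acts on the iron response, had a difference of 0.68 (SE 0.15, adjusted p = 0.0897), and its relative AT1G18910 one of -0.23 (adjusted p = 0.774). AT3G07720 had a difference of 0.59 (adjusted p = 0.157), AT3G56360 one of 0.37 (adjusted p = 0.537) and BGLU42, a glucosidase that frees coumarins for secretion, one of 0.05 (adjusted p = 0.946).

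In the fit over all probe sets, 11 of the 12 named iron deficiency genes had a positive difference (median 0.72), against 11037 of all 22746 probe sets. Of those outside the brighter 50% only BHLH101 is described, which the rule for naming genes did not require. BHLH101, a transcription factor that switches on iron uptake genes, was too dim to be tested among the brighter probe sets. Its levels were 7.22 and 6.67 in wild type, 9.28 and 9.38 in aha2-4, 9.02 in aha2-5, and 7.82 and 7.70 in aha1-6. The 3 aha2 arrays were the highest of all 8, and the fit over all probe sets gave a difference of 2.32 (SE 0.20, adjusted p = 0.241 in limma). Of 11 genes listed as high when iron is ample, SAPX alone had a named probe set in the brighter 50%. It encodes a chloroplast ascorbate peroxidase, and its difference was -0.27 (adjusted p = 0.654).

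**Figure D2:**
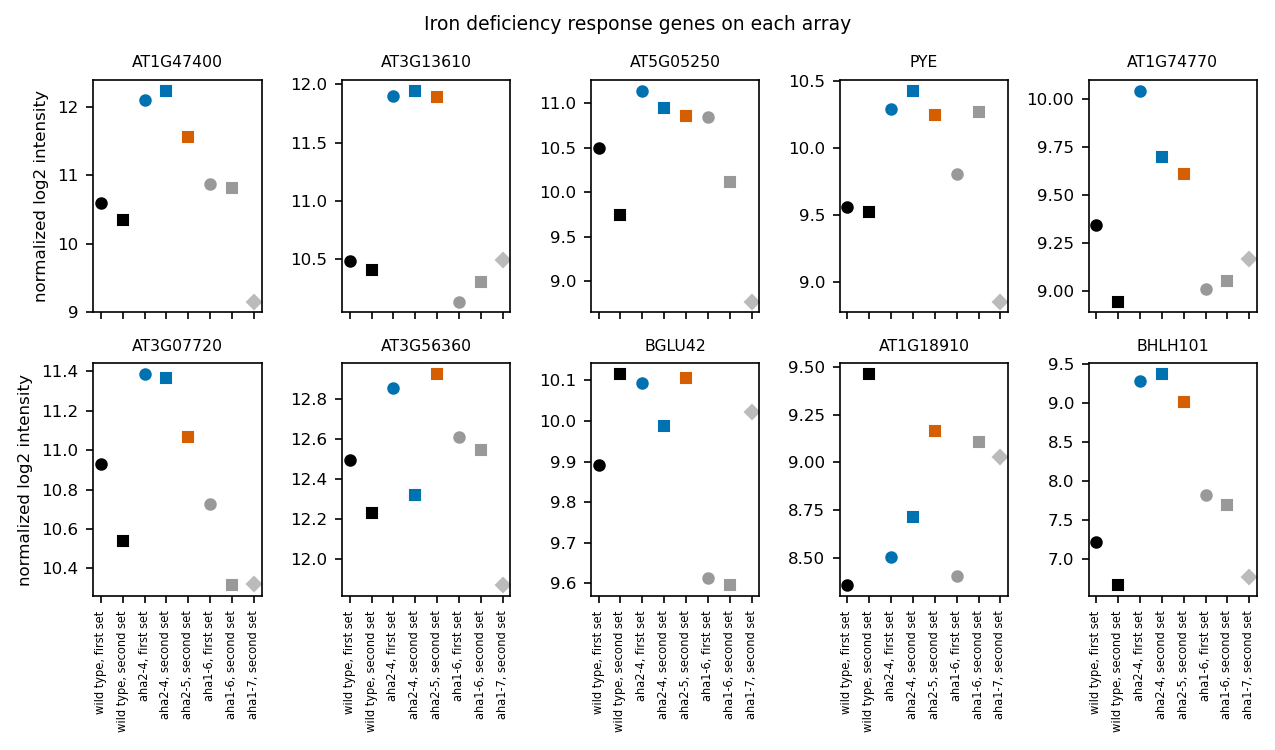
Level of 10 iron deficiency response genes (vertical axes, normalized log2 intensity, each with its own range) on the 8 arrays (horizontal axis); circles are the first set, squares the second, and the diamond is aha1-7, also of the second set. AT3G13610 stood near 11.9 in all 3 aha2 arrays and near 10.4 in wild type, while BGLU42 and AT1G18910 show no such step.

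Chitinases of the GH19 family break down chitin, the wall polymer of fungi. Of 14 listed genes 7 were in the brighter 50%, and the median difference was 0.72. Among the 7, 3 were called higher (0.422% of all probe sets tested were) and none was called lower. AT2G43590 had levels of 11.61 and 11.76 in wild type, 12.93 and 13.06 in aha2-4 and 12.84 in aha2-5. These did not overlap, and the difference was 1.24 (SE 0.14, adjusted p = 0.00192 in limma). It stood at 11.11 and 11.31 in aha1-6, below wild type, so that the difference of aha2 from aha1-6 was 1.71 (adjusted p = 0.000225). CHI (AT2G43570) had levels of 9.82 and 9.73 in wild type, 10.57 and 10.67 in aha2-4 and 10.83 in aha2-5, a difference of 0.90 (SE 0.14, adjusted p = 0.0161). CHI and AT2G43590 lie on chromosome 2 with 1 gene between them, AT2G43580, which was too dim for the brighter 50% and had a difference of 0.82 in the fit over all probe sets. AT1G02360 was 0.78 higher (SE 0.14, adjusted p = 0.0302), and AT4G01700 had a difference of 0.72 that did not pass (adjusted p = 0.0897). This family was grouped after its values had been seen, as were the berberine bridge enzyme-like, germin-like and class III peroxidase families.

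AT1G26380 encodes a berberine bridge enzyme-like oxidase that takes part in making indolic defence compounds. Its levels were 7.87 and 7.03 in wild type, 9.04 and 9.25 in aha2-4 and 9.81 in aha2-5. All 3 aha2 arrays were higher than both wild type arrays. The difference of 1.91 (SE 0.27, adjusted p = 0.00736 in limma) was the largest of any named gene tested. Its mean over all 8 arrays, 8.66, was just above the cut of 8.59 for the brighter 50%, and both wild type levels lay below that cut. High aha2 levels thus helped it to be tested at all. The aha1-6 levels of 8.30 and 8.64 also lay above wild type, and the difference of aha2 from aha1-6 did not pass (0.89, adjusted p = 0.0907). Within the second set, aha1-6 was 1.61 and aha1-7 2.34 above wild type, against 2.23 in aha2-4 and 2.78 in aha2-5. Of the 7 family members in the brighter 50% it was the only one called (0.422% of all probe sets tested were called higher). The median of the 7 was 0.49. AT5G44380 had a difference of 0.59 (adjusted p = 0.15) and AT4G20830 one of 0.58 (adjusted p = 0.292).

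AT5G38910, a germin-like gene whose family codes for secreted cell wall proteins, had levels of 8.57 and 8.35 in wild type, 9.81 and 10.39 in aha2-4 and 9.62 in aha2-5. Its difference from wild type was 1.44 (SE 0.23, adjusted p = 0.0149 in limma). The gene stood at 7.16 and 7.75 in aha1-6, which made it 2.45 higher in aha2 than in aha1-6 (adjusted p = 0.000317). Its direct neighbour on chromosome 5, AT5G38900, stood at 8.44 and 8.06 in wild type, 9.72 and 9.56 in aha2-4 and 9.57 in aha2-5. That is a difference of 1.40 (SE 0.14, adjusted p = 0.00123), and the aha1-6 levels of 8.31 and 8.25 lay between the wild type levels. At AT5G38910 and at AT5G38900, every array outside aha2 was below the brightness cut for testing. Their means over all arrays, 8.65 and 8.76, lay above it. Both genes were thus tested only because their aha2 levels were high. AT1G18980, another germin-like gene, had a difference of 0.63 that did not pass (adjusted p = 0.135), and AT3G10080 one of -0.07.

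Class III peroxidases, which cross-link or loosen the cell wall, gave no call. Of 72 listed genes 23 were in the brighter 50%, 16 had a positive difference (48.1% of all probe sets tested did), 9 had an unadjusted p under 0.05 (9.72% of all), and the median difference was 0.19. AT1G30870 came closest, with levels of 9.82 and 9.90 in wild type and of 10.58, 10.57 and 10.62 in the 3 aha2 arrays (difference 0.70, adjusted p = 0.0655 in limma). Tau-class glutathione S-transferases, which detoxify reactive compounds, also gave no call among 9 members (median 0.33, lowest adjusted p 0.0606 at GSTU28). Expansins, which loosen walls at acid pH and so depend on proton pumping, gave none among 8 (median 0.13), with EXPA8 highest at 0.60 (adjusted p = 0.105). Xyloglucan endotransglucosylases, which remodel the wall, gave none among 4 (median -0.13). UDP-glycosyltransferases gave none among 23 (median -0.02), with UGT72E1 at 0.63 (adjusted p = 0.077). Of 6 cytochrome P450 genes CYP71B23 alone was called higher (0.422% of all probe sets tested were), at 1.09 (SE 0.19, adjusted p = 0.0233). It was also raised in the second aha1-6 array, by 1.36 over wild type against 1.48 and 1.39 in the aha2 arrays of that set.

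Further named genes were called higher. AT3G54040 stood at 9.90 and 10.02 in wild type, 11.13 and 11.27 in aha2-4 and 11.54 in aha2-5 (difference 1.31, SE 0.15, adjusted p = 0.00192 in limma). The aha1-6 levels of 9.40 and 9.78 were below wild type. AT2G18690 had levels of 8.94 and 7.64 in wild type, 9.83 and 10.003 in aha2-4 and 10.05 in aha2-5, a difference of 1.70 (SE 0.29, adjusted p = 0.0269). The wild type arrays lay 1.30 apart there, and the second aha1-6 array, at 9.54, was also well above set-matched wild type. AT4G16260, a glucanase that cuts the wall polymer callose and its relatives, was 0.99 higher (SE 0.15, adjusted p = 0.0149), and AT5G48430, an aspartyl protease, 1.08 higher (SE 0.17, adjusted p = 0.0177). AT3G22240 had levels of 13.32 and 13.36 in wild type and of 14.42, 14.04 and 14.15 in the aha2 arrays (difference 0.88, adjusted p = 0.0201). The others were AT3G18250 (1.15), AR781 (0.996), CDI (0.94), AT2G41730 (0.91), ZCF37 (0.79), the C2-domain gene AT5G37740 (0.76) and the fructokinase gene AT5G51830 (0.72). At AT2G41730 the aha1-6 arrays were as high as the aha2 arrays, 1.03 and 1.04 above wild type, and the difference of aha2 from aha1-6 was -0.12 (adjusted p = 0.692). In aha1-6, ZCF37 was 0.78 and 0.59 above set-matched wild type, AT3G18250 0.36 and 1.06, and AR781 0.43 and 0.26. Their differences of aha2 from aha1-6 did not pass either (0.10, 0.44 and 0.65, adjusted p = 0.724, 0.19 and 0.0718 in limma). Those of CDI, AT5G37740 and AT5G51830 did.

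**Figure D3:**
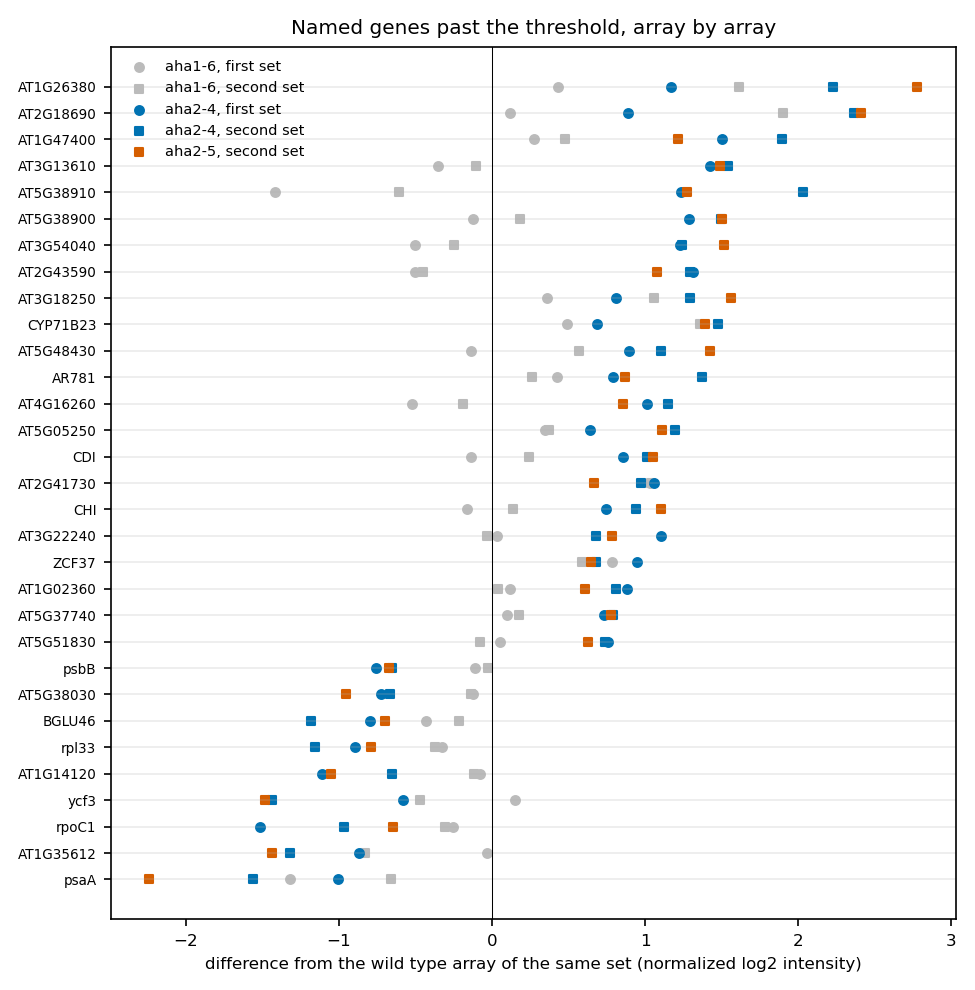
Difference of each aha2 and aha1-6 array from set-matched wild type (horizontal axis, normalized log2 intensity) for the 31 named called genes (vertical axis). Blue is aha2-4, orange aha2-5 and grey aha1-6; circles are the first set and squares the second, and for each gene all 3 aha2 points lie on 1 side of the line at 0.

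Lower levels in aha2 were called at 4 named nuclear genes. AT1G35612 had levels of 9.51 and 9.63 in wild type, 8.64 and 8.31 in aha2-4 and 8.19 in aha2-5 (difference -1.14, SE 0.17, adjusted p = 0.0146 in limma). In aha1-6 this gene stood at 9.48 and 8.80, the second array well below set-matched wild type. AT1G14120, an oxygenase closely related to the enzyme that oxidises auxin, stood at 9.84 and 9.90 in wild type, 8.74 and 9.25 in aha2-4 and 8.85 in aha2-5. The difference was -0.95 (SE 0.16, adjusted p = 0.0216), and the aha1-6 arrays, at 9.76 and 9.79, were close to wild type. BGLU46, a glucosidase that acts on glucosides of lignin precursors, had a difference of -0.89 (SE 0.17, adjusted p = 0.0403), and AT5G38030, a transporter of the MATE family, one of -0.78 (SE 0.14, adjusted p = 0.038). The differences of aha2 from aha1-6 did not pass at AT1G35612 (-0.71, adjusted p = 0.0519 in limma) and BGLU46 (-0.57, adjusted p = 0.0871). Those of AT1G14120 and AT5G38030 did.

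Genes of the plastid genome encode the cores of both photosystems, parts of the ATP synthase and of the ribosome, and subunits of the polymerase that transcribes them. Of 129 listed plastid-encoded genes, 69 had a named probe set and 51 lay in the brighter 50%. This list too was chosen with earlier results of these data known, and its shares give no independent support. Among the 51, 5 were called lower in aha2 (0.114% of all probe sets tested were) and none higher. An unadjusted p under 0.05 was found at 26 (9.72% of all), and 47 had a negative difference (51.9% of all), with a median of -0.37. Relative to set-matched wild type, the median difference came to -0.32 and -0.43 in the aha2-4 arrays, -0.30 in aha2-5, and 0.00 and -0.23 in aha1-6. The levels of 13 of the 51 did not overlap, all with aha2 lower, against 10.3% of all probe sets tested. Between the wild type arrays themselves, the second set was lower than the first by a median of -0.85 over these genes, a larger difference than that between genotypes. With no term for set the median was -0.48 and no plastid gene was called. With all 8 arrays, or without the second wild type array, none was called either. Without the second aha2-4 array or either aha1-6 array 1 was called, and without the first aha2-4 or the first wild type array 2 were.

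Photosystem I genes had negative differences at 4 of 4 (median -0.70). At psaA, which encodes a core protein that binds its chlorophylls, the level was 10.45 and 9.59 in wild type, 9.44 and 8.03 in aha2-4 and 7.35 in aha2-5. The groups did not overlap, and the difference was -1.58 (SE 0.29, adjusted p = 0.039 in limma). The aha1-6 arrays, at 9.13 and 8.93, were also below wild type, and aha2 did not differ from aha1-6 past the threshold (-0.59, adjusted p = 0.284). For psaB, the partner core protein, the difference was -0.70 (adjusted p = 0.154), and for psaI -0.67 (adjusted p = 0.0784). ycf3, needed to assemble photosystem I, had levels of 10.28 and 9.58 in wild type, 9.70 and 8.14 in aha2-4 and 8.09 in aha2-5. The first aha2-4 array lay above the second wild type array, and the difference within sets was -1.08 (SE 0.18, adjusted p = 0.0249).

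Photosystem II genes were negative at 12 of 14 (median -0.35). psbB, an antenna protein of its core, had levels of 9.90 and 8.67 in wild type, 9.14 and 8.02 in aha2-4 and 7.996 in aha2-5. The groups overlapped across sets, with a difference within sets of -0.71 (SE 0.13, adjusted p = 0.0403 in limma). psbC did not pass at -0.64 (adjusted p = 0.0897), nor psbA at -0.37 (adjusted p = 0.462). Of the plastid polymerase genes in the brighter 50%, rpoC1 was called at -1.09 (SE 0.19, adjusted p = 0.0299), with levels of 9.67 and 8.67 in wild type, 8.15 and 7.71 in aha2-4 and 8.02 in aha2-5. rpoC2 had a difference of -0.83 (adjusted p = 0.144) and rpoA one of 0.23 (adjusted p = 0.781). Ribosomal protein genes were negative at 11 of 11 (median -0.43), and rpl33 was the one called. It stood at 13.53 and 13.01 in wild type, 12.63 and 11.86 in aha2-4 and 12.22 in aha2-5 (difference -0.94, SE 0.15, adjusted p = 0.0161).

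ATP synthase and cytochrome b6f genes were negative at 7 of 7 (median -0.34) and genes of the NADH dehydrogenase-like complex at 4 of 5 (median -0.16), with no call in either. The nuclear genes for photosystem subunits and RuBisCO had a median of -0.01 over 7 genes, 0 of them called. LHCB4.3, a light-harvesting protein, had the highest value there, 0.37 (adjusted p = 0.397 in limma). Among organ markers, PYK10, a root glucosidase, differed by -0.13, and RCA, the leaf activase of RuBisCO, by 0.13, and neither passed. These were the 1 root marker of 8 and the 1 shoot marker of 10 that were named and bright enough, so the share of root and shoot in the samples was hardly measured. Of 9 root hair markers 2 were bright enough, EXPA18 at 0.40 (adjusted p = 0.639) and AT4G26010 at 0.30 (adjusted p = 0.655), and both overlapped between aha2 and wild type. AT4G26010 was 0.72 higher in aha2 than in aha1-6 (adjusted p = 0.0481). The part of root or root hair tissue in the values of the iron genes was not tested. The clock gene GI differed by 0.12, and BCAT4, an enzyme of aliphatic glucosinolate synthesis, by -0.45 (adjusted p = 0.252). No gene listed for nitrate uptake, phosphate starvation or sulfate uptake was named and in the brighter 50%.

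**Figure D4:**
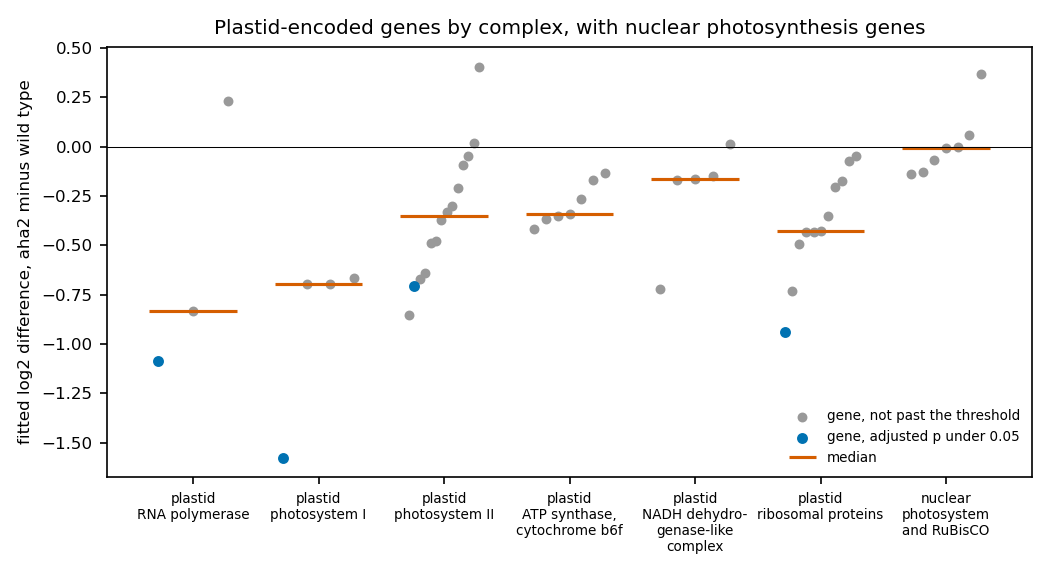
Fitted difference between aha2 and wild type (vertical axis, log2) for genes of the brighter 50%, grouped by complex (horizontal axis); each point is a gene, blue where called, and the orange line is the group's median. The medians of the plastid groups run from -0.83 for the polymerase to -0.16 for the NADH dehydrogenase-like complex, and that of the nuclear genes is -0.01.

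The other 30 called probe sets have no gene in the annotation used here. The largest rise of all was among them, at probe set 251677_at, with levels of 9.36 and 8.997 in wild type, 11.62 and 11.64 in aha2-4 and 11.18 in aha2-5. It was 2.34 higher in aha2 (SE 0.16, adjusted p = 0.000113 in limma), a 5.06-fold difference, with aha1-6 between at 10.004 and 9.91. Probe set 267565_at was 2.29 higher (adjusted p = 0.000849), although its wild type levels, 9.63 and 7.44, lay far apart. The largest falls among the unnamed were -1.38 at 248377_at (adjusted p = 0.00189) and -1.28 at 251109_at (adjusted p = 0.00192).

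The alleles were next taken apart. Against wild type, 65 probe sets were called for the 2 aha2-4 arrays and 17 for the single aha2-5 array, and these comparisons share the wild type arrays. Of the 61 probe sets called for both alleles together, 50 were among the 65 and 13 among the 17. Their median difference was 1.08 in aha2-4 and 1.01 in aha2-5 for the 48 higher probe sets, and -1.03 and -1.12 for the 13 lower ones. The fit that chose the 61 pooled the alleles, and a gap between the alleles widens its spread. Probe sets where the alleles disagree were thus less likely to be chosen, so likeness of the alleles among the 61 was partly set beforehand. None of the 61 differed between the alleles past the threshold, where 0.0176% of all probe sets tested did. At an unadjusted p under 0.05, 7 of the 61 did so, a share near the 9.07% of all probe sets tested. psaA was 1 of these 7, with a difference from wild type of -1.28 in aha2-4 and -2.25 in aha2-5 (unadjusted p = 0.00896, adjusted p = 0.441 in limma).

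Tested directly, aha2-5 and aha2-4 differed at 2 probe sets, 0.0176% of those tested, with 1031 (9.07%) at an unadjusted p under 0.05. The lone aha2-5 array was assumed to vary like the other groups, and the allele and that 1 array cannot be told apart. Probe set 253609_at, which the annotation used here pairs with no gene, had levels of 13.95 and 14.10 in wild type, 9.74 and 9.91 in aha2-4 and 13.44 in aha2-5. In aha1-6 it stood at 13.74 and 13.60, and in aha1-7 at 14.38. Both aha2-4 arrays were thus far below every other array, at deposited intensities of 830.8 and 931.5 against 15198.4 and 18489.1 in wild type and 11866.4 in aha2-5. For aha2-4 the difference from wild type was -4.20 (SE 0.15, adjusted p = 4.22e-07 in limma), for aha2-5 it was -0.61 (SE 0.19, adjusted p = 0.368), and between the alleles it was 3.59 (SE 0.19, adjusted p = 2.88e-05). With the alleles pooled, the difference of -3.12 was not called (adjusted p = 0.144). Whether this probe set reads AHA2 was not tested. At this probe set, pooling the alleles joins the aha2-5 array, close to wild type, with 2 arrays far below it.

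AT4G33380 was the other probe set. It stood at 9.59 and 10.42 in wild type, 9.29 and 9.95 in aha2-4 and 11.76 in aha2-5. The aha2-5 array was above every wild type, aha2-4 and aha1-6 array, and the aha1-7 array, at 11.78, was equally high. The single aha2-5 array stood 1.81 above aha2-4 (SE 0.19, taken from the spread of the other groups, adjusted p = 0.011 in limma) and 1.42 above wild type (adjusted p = 0.0168). With all 8 arrays neither allele difference passed (adjusted p = 0.137 for 253609_at and 1 for AT4G33380), nor over all probe sets (0.431 and 0.558). With no term for set that of AT4G33380 did not pass (adjusted p = 0.877).

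The allele difference moved with a difference between arrays of the other mutant. Over the 11373 probe sets, the difference of aha2-5 from aha2-4 and that of aha1-7 from aha1-6, both within the second set and with no array in common, had a Pearson correlation of 0.20. Their signs were the same at 732 of the 1031 probe sets with an unadjusted allele p under 0.05 (71.0%), against 57.4% over all. Gene span, the distance from a gene's start to its end, moved with it too: over 5832 named nuclear genes the rank correlation of the allele difference with the span of the gene was 0.20. Within single arrays that rank correlation was -0.29 and -0.27 in aha2-4, 0.06 in aha2-5, -0.03 and 0.21 in wild type, 0.01 and 0.27 in aha1-6, and 0.70 in aha1-7. The fitted difference of aha2 from wild type had a rank correlation of -0.30 with gene span, and its median was 0.08 in the shortest 10% of genes and -0.10 in the longest. With p-values adjusted over these 5832 genes alone, 24 of the 26 called named nuclear genes passed, since AT5G51830 and BGLU46 then had an adjusted p of 0.051. After a trend on gene span was removed from each array 23 were called, and 21 were the same genes as those 24.

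**Figure D5:**
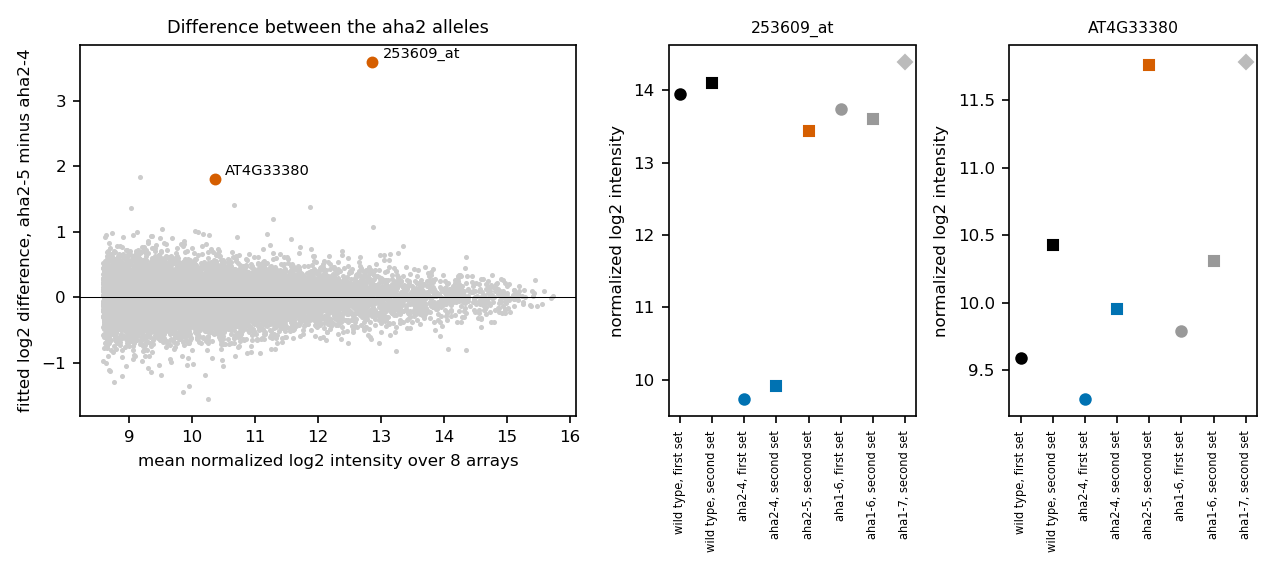
Left, fitted difference between aha2-5 and aha2-4 (vertical axis, log2) against the mean level over 8 arrays (horizontal axis, normalized log2 intensity), with the 2 called probe sets in orange. Centre and right, the level of each on the 8 arrays: 253609_at is low in the 2 aha2-4 arrays only, and AT4G33380 is high in aha2-5 and aha1-7.

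Compared with aha1-6, the mutant of the sister pump, aha2 differed at 344 probe sets (3.02%), 190 higher (1.67%) and 154 lower (1.35%). This comparison uses the same aha2 arrays as that with wild type, and 45 of the 61 probe sets were called in it as well. The split depended on scaling: with median scaling 263 were higher and 113 lower, and with no scaling between arrays 158 higher and 220 lower. At the 48 higher probe sets the aha1-6 arrays had a median difference from wild type of 0.06 and 0.16, against 0.98 and 1.22 in aha2-4 and 1.08 in aha2-5. For the 13 lower ones the medians were -0.18 and -0.31 in aha1-6, against -0.89 and -1.28 in aha2-4 and -1.14 in aha2-5. The 48 and the 13 were chosen by the difference of aha2 from wild type. Smaller medians in aha1-6 follow in part from that choice. AT5G38910, AT3G54040, AT2G43590 and AT3G13610 had the largest differences of aha2 from aha1-6 among the named called genes, 2.45, 1.68, 1.71 and 1.69. In each the aha1-6 arrays lay below both wild type arrays.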

How the data were processed

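The authors deposited 1 linear intensity per probe set. Per the submitters' processing notes it came from Affymetrix Expression Console, version 1.1; how spots were summarised is not stated there. Each array's mean after a 2% trim was close to 1000.1. An array carries 22810 probe sets, of which 64 controls were left out. Gene names came from the platform annotation and RefSeq: 13513 probe sets had 1 gene, 503 several and 8730 none.

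Values were transformed to log2(value + 1), quantile normalized and fitted with limma 3.58.1 in R 4.3.3 on 7 arrays (3 residual degrees of freedom), with set as a fixed term. The brighter 50% by mean over all 8 arrays was tested. That mean takes in the aha2 arrays, so a gene near the cut of 8.59 could be tested because its aha2 levels were high. A simulated data set was used to check the fit. Named genes were all called single-gene probe sets, up to 4 members of each list by smallest p, and all bright members of the iron and plastid polymerase lists. BHLH101 and AT2G43580, both outside the brighter 50%, were named in addition. Where a gene had several probe sets the brightest was taken. The 7 arrays, the members and the lists were chosen with earlier results of these data known. Several gene families were listed after the values were seen.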

Additional observations from a re-analysis of the deposited data

Results flagged for a closer look

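In the fit of 7 arrays, the single aha2-5 array differed from aha2-4 past the threshold at 2 probe sets. The difference was 3.59 at probe set 253609_at, which was low in both aha2-4 arrays, and 1.81 at AT4G33380, which was high in the aha2-5 array and in the aha1-7 array. Neither passed with all 8 arrays or over all probe sets, and with 1 aha2-5 array the allele and the array cannot be told apart.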

How the results depend on the processing

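All 61 probe sets kept their direction under the alternatives tried. The count was 3 with all 8 arrays, 36 with the 5 aha2 and wild type arrays, 21 with no set block, 40 with set as a random block (correlation within sets 0.218) and 0 over all probe sets. It stayed at 61, 72 and 62 with a pseudocount of 16, median scaling and no scaling, and ran from 1 to 65 when single arrays were left out. The count for aha2-5 against aha2-4 was 0 with 8 arrays, 31 with 5 arrays, 1 with no set block, 1 with a random block and 0 over all probe sets, and 4 to 33 with single arrays left out. For aha2 against aha1-6 these counts were 20 with 8 arrays, 51 with no set block, 184 with a random block and 0 over all probe sets, and 17 to 556 with single arrays left out. The alternatives for aha1-6, the allele fits with other block terms or arrays left out, and the gene span trend were chosen after seeing the data. The median of the iron genes ran from 0.57 to 0.77 and that of the plastid genes from -0.42 to -0.29 with single arrays left out, and the latter was -0.48 with no set block. With single arrays left out, BGLU42 ran from -0.065 (without the first wild type array) to 0.20, and was -0.01 without the first aha2-4 array. AT1G18910 ran from -0.49 to 0.072, and rpoA from -0.16 to 0.55, both with their sign turned without the second wild type array. The cause was not tested. The labels number no replicates, so arrays were paired only through the set block of the main fit. The number of arrays limits the precision, and fits of aha2 against wild type without 1 array had 2 residual degrees of freedom.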
